A study of Homo sapiens with 18 samples.

Results

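The genes described here are 10 interferon-stimulated genes, IFI27, IFI6, IFI44, IFI44L, BST2, IFITM1, IFITM2, IFITM3, ISG15 and GBP1, out of 58037 genes in the deposited count table. They were picked by name from that table, as small interferon-stimulated genes with large rises when either E2F1 or E2F2 was targeted by siRNA, so the differences between E2F siRNA and control siRNA are what chose them and are given below as description, with no test. The values do not bear out that description for every gene. The fold change of 8 of the 10 lay above control siRNA in all 4 comparisons, but not always clearly. On the log2 scale ISG15 lay 0.28 ± 0.18 (SE) above with E2F1 siRNA and vehicle, and GBP1 0.37 ± 0.39 above with E2F2 siRNA and R1881. IFITM2 lay below control in all 4, and IFITM3 lay close to control with vehicle. Without replicate 3 of control siRNA with R1881, IFITM2 lay slightly above control with E2F1 siRNA and R1881, at 0.087 on the log2 scale.

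RNA was sequenced from LNCaP, an established androgen-responsive prostate cancer cell line, after siRNA transfection and androgen treatment. The 6 groups, each with 3 biological replicates, were control siRNA with vehicle, control siRNA with R1881, E2F1 siRNA with vehicle, E2F1 siRNA with R1881, E2F2 siRNA with vehicle and E2F2 siRNA with R1881. The siRNAs were SmartPools, mixtures of several siRNAs against one target, and the control was a non-targeting SmartPool, so all 18 libraries came from transfected cells and untransfected cells were not among the groups. All cells were kept in 9% charcoal-stripped serum, which is depleted of androgens, and were transfected with a Lipofectamine reagent. R1881, a synthetic androgen, was given at 0.1 nM, vehicle was ethanol, and RNA was taken 48 h later. The labels give the start of treatment as 42 h after transfection in one place and 48 h in another. E2F1 and E2F2 are transcription factors that drive genes for entry into the cell cycle.

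Interferons are secreted proteins that cells release when they sense viral nucleic acid. They bind receptors linked to the kinases JAK1 and TYK2, which activate transcription factors that bind a short DNA motif, the interferon-stimulated response element, in front of many genes. The genes described here are among the most commonly measured targets of that pathway. IFI27 and IFI6 encode small related membrane proteins with roles in cell survival. IFI44 and IFI44L are neighbouring related genes. BST2 (tetherin) holds budding virus on the cell surface, and the IFITM proteins block virus fusion with cell membranes. ISG15 is a ubiquitin-like protein that is joined to other proteins, and GBP1 is a large GTPase that is most strongly induced by interferon gamma. LNCaP cells have been reported to respond weakly to interferon, with little JAK1.

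In the GRCh38 genome with GENCODE 29, all 10 are protein-coding genes. IFI27 (ENSG00000165949.12) lies on chromosome 14 at 94104836 to 94116698 on the plus strand. On chromosome 1, ISG15 (ENSG00000187608.8) spans 1001138 to 1014540 on the plus strand and IFI6 (ENSG00000126709.14) 27666061 to 27672218 on the minus strand. IFI44L (ENSG00000137959.15, 78619922 to 78646145) and IFI44 (ENSG00000137965.10, 78649796 to 78664078) follow each other on the plus strand of that chromosome, and GBP1 (ENSG00000117228.9) spans 89052319 to 89065360 on its minus strand. BST2 (ENSG00000130303.12) lies on chromosome 19 at 17402939 to 17405648, minus strand. The 3 IFITM genes form a cluster on chromosome 11, with IFITM2 (ENSG00000185201.16) at 307631 to 315272 and IFITM1 (ENSG00000185885.15) at 313506 to 315272 on the plus strand, and IFITM3 (ENSG00000142089.15) at 319669 to 327537 on the minus strand. In that annotation IFITM1 and IFITM2 share 351 exonic bases, IFITM3 shares 287 with the noncoding gene AC136475.5, and ISG15 shares 36 with a pseudogene. Counts of the IFITM genes are therefore uncertain, both for that overlap and because IFITM1, IFITM2 and IFITM3 are similar in sequence and no source used here gives how strand and multiply mapping reads were handled.

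The promoters were read for short motifs. The genes were picked as interferon-stimulated genes, many of which carry the interferon-stimulated response element, so its share among them is given as description. RefSeq (GRCh38.p14) gave promoter windows, from 250 bases before to 50 bases after the start, for 9 of the 10 genes, all but IFITM2. Both strands were searched for the core of the interferon-stimulated response element, that is GAAA, any 2 bases and GAAA, which reads TTTC, any 2 bases and TTTC on the other strand. It was found in 9 of 9 genes, against 4.38% of the 27305 genes with a window of this length. One 30-base stretch per gene, upstream of the start, is shown to let the shared letters be compared. Each reads 5′ to 3′ on the strand of its gene, with every match to the core in capitals.
ISG15, chr1:1013377-1013406, plus strand: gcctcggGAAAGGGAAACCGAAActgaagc
IFI6, chr1:27672266-27672295, minus strand: gcagagtgcaGAAATAGAAActccgacagg
IFI44L, chr1:78620365-78620394, plus strand: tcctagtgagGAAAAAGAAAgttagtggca
IFI44, chr1:78649759-78649788, plus strand: gggcacactgagTTTCAGTTTCctttctct
GBP1, chr1:89065316-89065345, minus strand: aacgaagtacTTTCAGTTTCatattactct
IFITM1, chr11:313990-314019, plus strand: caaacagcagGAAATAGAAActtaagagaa
IFITM3, chr11:320885-320914, minus strand: agGAAAAGGAAActgttgaGAAACCGAAAc
IFI27, chr14:94110624-94110653, plus strand: gcagTTTCGGTTTCctgGAAAATGAAAcct
BST2, chr19:17405738-17405767, minus strand: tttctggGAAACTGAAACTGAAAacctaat

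In ISG15 and BST2 a pair of overlapping matches formed a longer run of the repeat. In IFITM3 and IFI27 a pair stood side by side without overlap. The promoter windows of IFI6, IFI44L and IFITM1 also held matches outside the stretch shown. IFI44 and GBP1 carried the core on the opposite strand only. The gamma-activated site, spelled TTCNNNGAA, is bound after interferon gamma. It was found in 3 of 9 promoters, those of IFI27, BST2 and IFITM1, against 9.38% of all genes, and in each it had a match that overlapped a match to the other motif. An E2F motif, spelled TTTNNCGC, matched 0 of 9, against 8.23% of all genes. A match is a description of the letters, and the absence of one says only that these letters are not in this window.

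Libraries held 10930204 to 14819879 counts, and 15185 genes, the 10 members among them, passed a filter on low counts. IFI27, IFI44L and GBP1 passed it only through libraries with an E2F siRNA, so these 3 could hardly have been listed without lying higher there. The siRNA targets checked the labels. E2F1 was 37.3 ± 5.00 CPM (counts scaled to a common library size; mean ± SD, n = 3 in each group) with control siRNA and vehicle and 6.83 ± 1.69 with E2F1 siRNA and vehicle, and it was also lower, 12.6 ± 2.25, with E2F2 siRNA. E2F2 was 2.29 ± 0.877 with control siRNA and vehicle, 1.87 ± 0.543 with E2F1 siRNA and vehicle and 0.121 ± 0.142 with E2F2 siRNA and vehicle. With R1881, E2F1 was 74.4 ± 6.32, 9.69 ± 0.876 and 24.1 ± 2.29 CPM with control, E2F1 and E2F2 siRNA. In the same order E2F2 was 3.43 ± 1.12, 1.45 ± 0.274 and 0.195 ± 0.192 CPM, so with R1881 it was lower with E2F1 siRNA too. All 10 markers of luminal prostate cells were detected in every library. Among 16 markers of other cell types CD3E of T cells was at 0 in all libraries and PTPRC of blood cells reached 1 count; their summed level, mostly from VWF and COL1A1, moved with the groups. It ran from 30.5 to 51.4 CPM with control siRNA and vehicle, 33.2 to 35.1 with control and R1881, 17.9 to 22.6 with E2F1 siRNA and vehicle, 21.3 to 25.2 with E2F1 and R1881, 72.2 to 83.3 with E2F2 siRNA and vehicle and 42.8 to 50.8 with E2F2 and R1881. Its part in the results was not tested, and in these bulk libraries fewer cells of a type and less RNA per cell cannot be told apart. Replicate 3 stood apart from replicates 1 and 2 in all 6 groups, as described at the end.

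Against control siRNA, most of the set lay higher with both E2F pools, and IFI27, GBP1 and IFI6 lay farthest from control with vehicle. The median log2 fold change of the 10 genes was 1.11 with E2F1 siRNA and vehicle, 1.30 with E2F2 siRNA and vehicle, 1.68 with E2F1 siRNA and R1881 and 1.55 with E2F2 siRNA and R1881, where the median over all tested genes was 0.01, 0.02, -0.01 and 0.03. The median with E2F1 siRNA and R1881 was 2.17 without replicate 3 of control siRNA with R1881. With E2F2 siRNA and R1881 the median was the midpoint of ISG15 (0.71) and IFITM1 (2.40), with no gene between them. With vehicle, all 3 E2F1 siRNA libraries lay above all 3 control libraries for 5 of 10 genes, where 7.20% of all genes did so and 5.28% were called by the edgeR test described below. The same held with E2F2 siRNA for 7 of 10 (20.4% of all genes, 27.3% called). With R1881 it held for 8 of 10 with E2F1 siRNA (15.9% of all genes, 9.34% called) and for 8 of 10 with E2F2 siRNA (25.6%, 30.3% called). For IFI27, IFI6, IFI44 and IFITM1, 4 of 10, each of the 12 libraries with an E2F siRNA lay above each of the 6 with control siRNA, as 0.454% of all genes did. Since the genes were chosen on these comparisons, nothing is read from the counts. The E2F1 and E2F2 comparisons share their control libraries.

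**Figure D1:**
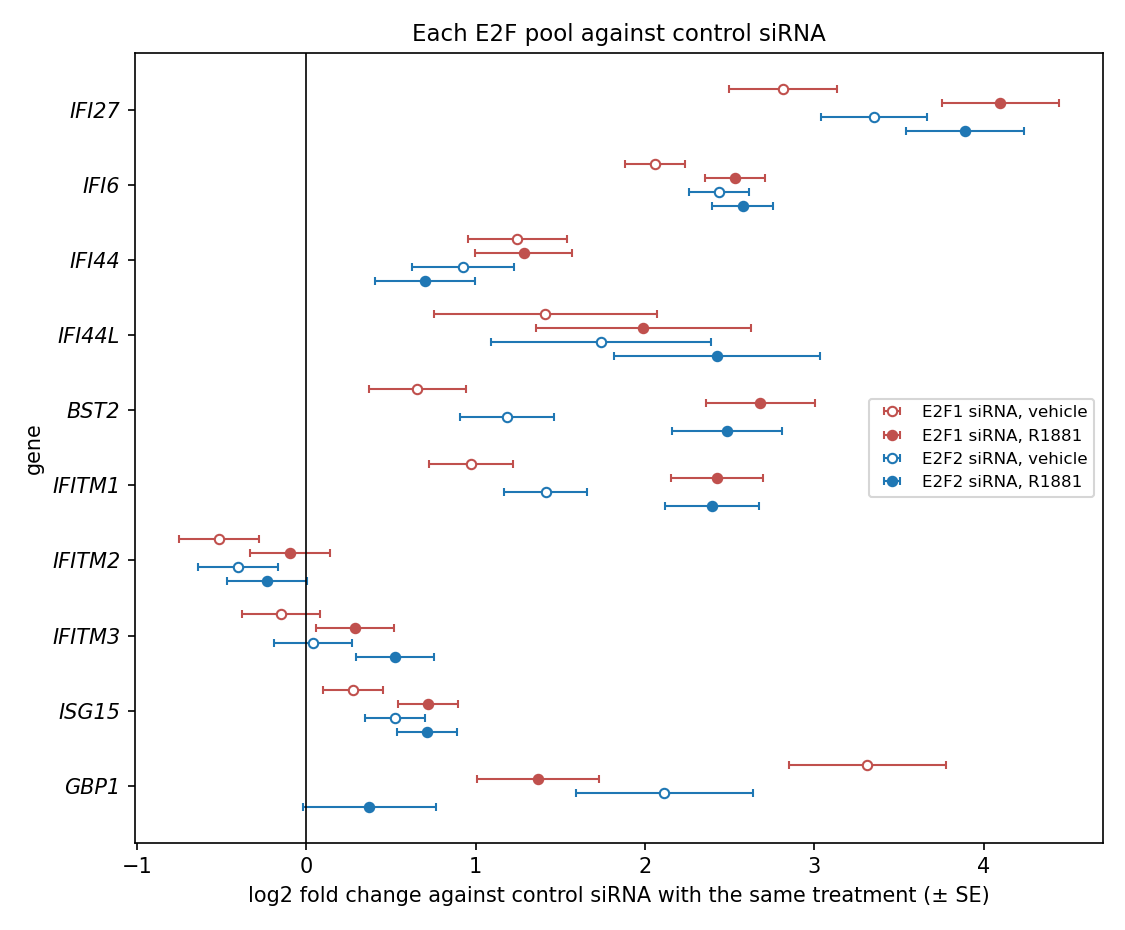
The plot of each E2F pool against control siRNA gives the log2 fold change (horizontal axis, points, with bars of 1 SE) for the 10 genes, in vehicle (open) and R1881 (filled). IFI27 and IFI6 lie at 2.06 or more in all 4 comparisons. IFITM2 lies between -0.52 and -0.10 and IFITM3 between -0.15 and 0.52. BST2 and IFITM1 lie farther right with R1881 than with vehicle.

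IFI27 was the gene with the highest fold changes with R1881, from a very low base. With control siRNA it stood at 0.537, 0.277 and 0.467 CPM in the 3 vehicle libraries and at 0.267, 0.214 and 0.26 in the 3 R1881 libraries, which were 3 to 7 counts in each. With E2F1 siRNA it stood at 2.71, 3.45 and 3.00 CPM in vehicle and 3.45, 5.18 and 4.51 in R1881. With E2F2 siRNA it stood at 2.87, 5.94 and 4.48 CPM in vehicle and 3.80, 3.26 and 4.33 in R1881. No library with an E2F siRNA came near the control range, and the 4 groups with an E2F siRNA overlapped one another. The log2 fold change against control was 2.81 ± 0.32 (± SE throughout) for E2F1 siRNA and 3.35 ± 0.31 for E2F2 siRNA in vehicle, and 4.10 ± 0.34 and 3.89 ± 0.35 in R1881, which is 7.03-fold, 10.2-fold, 17.1-fold and 14.8-fold.

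IFI6, its relative, stood at a higher level and was likewise clear of control in every library with an E2F siRNA. Control libraries held 12.5, 13.4 and 15.7 CPM in vehicle and 9.08, 14.8 and 12.2 in R1881. Libraries with E2F1 siRNA held 54.9, 50.1 and 68.6 CPM in vehicle and 58.1, 70.2 and 80.2 in R1881, and those with E2F2 siRNA 70.6, 71.0 and 84.3 in vehicle and 65.7, 76.9 and 72.5 in R1881. The lowest library with an E2F siRNA, at 50.1 CPM, was above the highest control library at 15.7. The fold over control was 4.17 and 5.42 in vehicle and 5.78 and 5.97 in R1881, for E2F1 and E2F2 siRNA in that order.

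IFI44 had smaller fold changes than IFI27 and IFI6. In control libraries it measured 3.68, 4.29 and 1.40 CPM in vehicle and 2.40, 4.57 and 3.81 in R1881. With E2F1 siRNA it measured 7.69, 8.58 and 5.92 CPM in vehicle and 8.04, 9.35 and 8.77 in R1881. With E2F2 siRNA it measured 6.10, 6.04 and 5.60 CPM in vehicle and 6.51, 5.85 and 5.08 in R1881. All 12 libraries were above control, but narrowly for E2F2 siRNA with R1881, whose lowest library stood at 5.08 beside 4.57 in the highest control. The log2 fold changes were 1.25 ± 0.29 (E2F1 siRNA) and 0.93 ± 0.30 (E2F2 siRNA) in vehicle and 1.28 ± 0.29 and 0.70 ± 0.30 in R1881. The neighbouring gene IFI44L was near the detection limit, with 2 to 6 counts per control library (0.143 to 0.460 CPM) and 3 to 25 counts per library with an E2F siRNA (0.231 to 2.09 CPM). Its log2 fold changes were 1.41 ± 0.66 (E2F1 siRNA) and 1.74 ± 0.65 (E2F2 siRNA) in vehicle and 1.99 ± 0.63 and 2.43 ± 0.61 in R1881, with the widest errors of the set. Replicate 3 of E2F1 siRNA with vehicle, at 0.231 CPM, lay inside the control range.

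BST2 differed from control mainly in R1881. Control libraries held 2.00, 1.25 and 0.934 CPM in vehicle and 0.467, 0.714 and 0.346 in R1881. With E2F1 siRNA the values were 2.49, 1.68 and 2.31 CPM in vehicle and 3.12, 3.72 and 3.23 in R1881. With E2F2 siRNA they were 2.68, 3.11 and 3.62 CPM in vehicle and 3.38, 3.35 and 2.08 in R1881. In vehicle the E2F1 siRNA libraries overlapped the control libraries; in R1881 every library of either pool was above every control library. The log2 fold change went from 0.65 ± 0.29 in vehicle to 2.68 ± 0.32 in R1881 for E2F1 siRNA, and from 1.19 ± 0.28 to 2.48 ± 0.33 for E2F2 siRNA.

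IFITM1 had the same form. It stood at 1.30, 1.38 and 2.34 CPM in control vehicle libraries and at 0.534, 0.928 and 0.952 in control R1881 libraries. With E2F1 siRNA it stood at 3.66, 3.18 and 3.08 CPM in vehicle and 3.20, 4.53 and 5.19 in R1881, and with E2F2 siRNA at 4.16, 4.43 and 4.91 in vehicle and 4.65, 4.52 and 3.49 in R1881. Every library with an E2F siRNA lay above every control library. The log2 fold change was 0.97 ± 0.25 with E2F1 siRNA and 1.41 ± 0.24 with E2F2 siRNA in vehicle, and 2.43 ± 0.27 and 2.40 ± 0.28 in R1881.

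Its relatives IFITM2 and IFITM3 did not share that form. IFITM2 ran from 17.3 to 34.0 CPM in the 6 control libraries and from 14.1 to 24.0 in the 12 libraries with an E2F siRNA, and the groups overlapped in each of the 4 comparisons. Its log2 fold changes were -0.52 ± 0.24 and -0.40 ± 0.24 in vehicle and -0.10 ± 0.24 and -0.23 ± 0.24 in R1881, for E2F1 and E2F2 siRNA in that order. IFITM3 stood at 73.8, 71.0 and 131 CPM in control vehicle libraries and 53.8, 56.2 and 74.0 in control R1881 libraries, and between 66.2 and 110 with an E2F siRNA. Its log2 fold changes were -0.15 ± 0.23 and 0.04 ± 0.23 in vehicle and 0.29 ± 0.23 and 0.52 ± 0.23 in R1881, where the first became 0.20 without replicate 3 of control siRNA with vehicle. Only E2F2 siRNA with R1881, at 76.6, 89.9 and 98.0 CPM, had all its libraries above control. For both genes replicate 3 of control siRNA with vehicle was the highest of the 18 libraries.

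ISG15 lay moderately above control. Control libraries held 29.5, 29.9 and 45.0 CPM in vehicle and 30.5, 28.6 and 35.1 in R1881. With E2F1 siRNA the values were 38.2, 35.4 and 52.9 CPM in vehicle and 46.0, 51.1 and 57.9 in R1881, and with E2F2 siRNA 52.8, 42.5 and 55.1 in vehicle and 50.2, 53.1 and 50.8 in R1881. The groups overlapped in vehicle and did not overlap in R1881. The log2 fold changes were 0.28 ± 0.18 and 0.53 ± 0.18 in vehicle and 0.72 ± 0.18 and 0.71 ± 0.18 in R1881.

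GBP1 had an order of its own, highest with E2F1 siRNA. It stood at 0.460, 0.346 and 0.133 CPM in control vehicle libraries (2 to 6 counts) and 1.14, 0.643 and 2.42 in control R1881 libraries. With E2F1 siRNA it stood at 3.30, 3.54 and 2.62 CPM in vehicle and 2.87, 4.75 and 2.89 in R1881. With E2F2 siRNA it stood at 1.48, 1.23 and 1.38 CPM in vehicle and 2.03, 2.01 and 1.25 in R1881. Both E2F pools were clear of control in vehicle, but in R1881 the E2F2 siRNA libraries fell inside the control range. The log2 fold change was 3.31 ± 0.46 with E2F1 siRNA and 2.11 ± 0.52 with E2F2 siRNA in vehicle, and 1.37 ± 0.36 and 0.37 ± 0.39 in R1881.

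**Figure D2:**
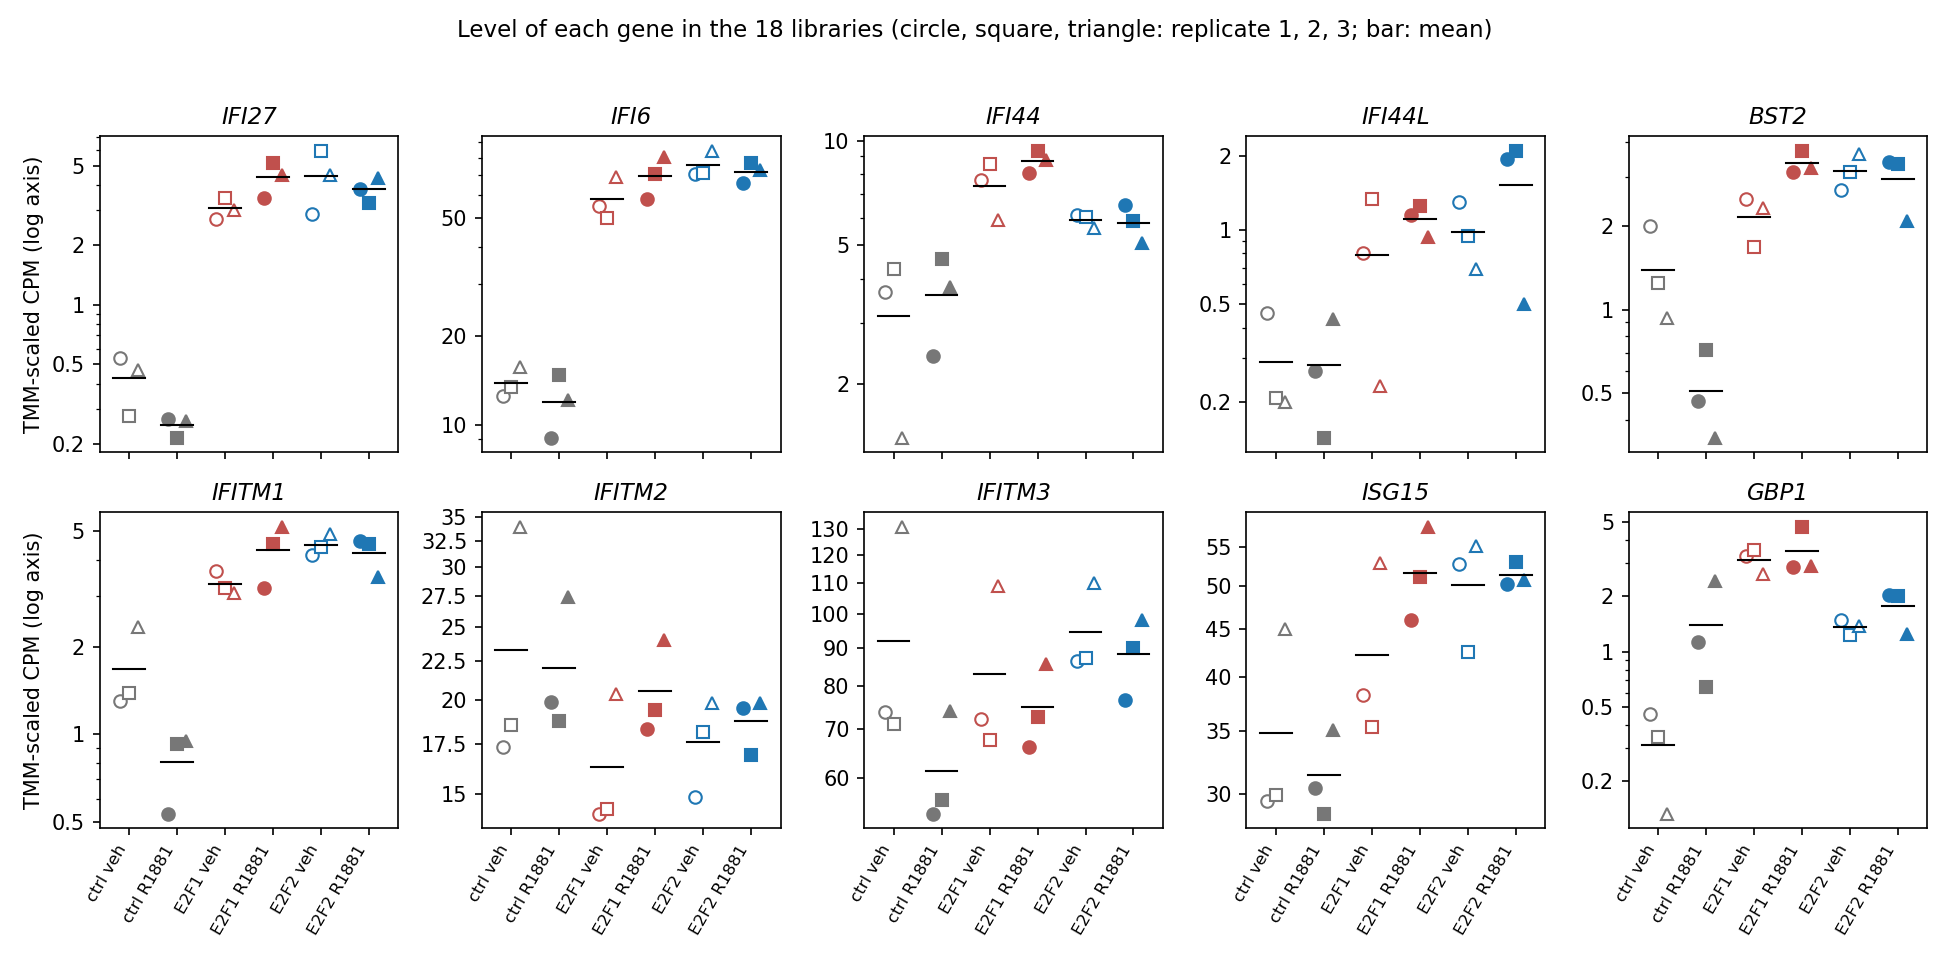
The plot of levels by library shows TMM-scaled CPM on a log axis for each gene, with 1 point per library (circle, square and triangle for replicates 1, 2 and 3), open for vehicle and filled for R1881, and a bar at the mean of 3. Grey control points sit below all red (E2F1 siRNA) and blue (E2F2 siRNA) points for IFI27, IFI6, IFI44 and IFITM1, and mix with them for IFITM2 and IFITM3.

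Levels of different genes were compared per kilobase of exon. In control libraries with vehicle IFITM3 was highest, at 68.2 ± 25.1 CPM per kilobase, followed by ISG15 at 37.0 ± 9.43, IFI6 at 16.0 ± 1.89 and IFITM2 at 15.1 ± 6.01. IFI6 and IFITM2 were not separated beyond their spread. IFI27, GBP1 and IFI44L were lowest, at 0.103 ± 0.0325, 0.0628 ± 0.0332 and 0.0283 ± 0.0145. With an E2F siRNA IFI6 had the highest mean in all 4 groups, though its libraries overlapped those of IFITM3 with E2F1 siRNA and vehicle. It stood at 87.0 ± 9.06 CPM per kilobase with E2F2 siRNA and vehicle, against 70.1 ± 9.88 for IFITM3 and 53.3 ± 7.17 for ISG15. The order of the first 2 depends on the length used: per kilobase of the longest transcript, IFITM3 stood at 117 and IFI6 at 89.5 in that group. GBP1 and IFI44L stayed low in that group, at 0.273 ± 0.0255 and 0.0953 ± 0.0297. The libraries were captured on coding sequence, so counts depend on probe coverage and a level per kilobase of exon is uncertain between genes. In CPM, without length, GBP1 and IFI44L stood at 1.36 and 0.976 there, against 75.3 for IFI6.

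Across the 18 libraries the set did not move as one. Over its 45 gene pairs, Pearson's r of log2 CPM ran from -0.60 to 0.97, with 9 pairs over 0.8 and 10 under 0. The highest was IFI27 with IFI6 (0.97), and IFI6 with IFITM1 (0.95) came next. These values are descriptions over 18 libraries that fall into 6 groups, and they rest mostly on the gap between groups: within groups r was 0.01 for IFI27 with IFI6 and 0.68 for IFI6 with IFITM1. Within groups the highest values belonged to IFITM3 with ISG15 (0.91) and to IFITM2 with IFITM3 (0.91), genes that stood higher in replicate 3 in 5 or 6 of the 6 groups. The 10 negative values included IFITM2 with IFI44 (-0.60) and with IFI44L (-0.45).

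Among all other tested genes, the 5 whose log2 CPM was most like the mean standardised profile of the 10 over 18 libraries were DUSP10 (r = 0.94), OAS1 (0.93), BAIAP2L1 (0.92), SEC31A (0.91) and HDLBP (0.91). DUSP10 encodes a phosphatase of stress-activated kinases; its level was 16.5 ± 1.55 CPM with control siRNA and vehicle, 26.3 ± 1.90 with E2F1 siRNA and 34.6 ± 2.52 with E2F2 siRNA. OAS1, an interferon-stimulated enzyme that senses double-stranded RNA, was also the gene most like IFI27 (0.94) and IFI6 (0.95), and IFIT2 was most like BST2 (0.90). The closest genes to the others were PHKA1 for IFI44 (0.90), HTATIP2 for IFI44L (0.91), DUSP10 for IFITM1 (0.95), NDUFAF3 for IFITM2 (0.92), UBXN6 for IFITM3 (0.97), HDLBP for ISG15 (0.96) and ATP8B1 for GBP1 (0.85), in whose place NOSTRIN (0.85) came first with a prior count of 0.5. Only OAS1 and IFIT2 among these are in the interferon lists used below.

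The response to R1881 was not the comparison that chose the genes, but its libraries served in choosing them. It was tested with edgeR's quasi-likelihood test with Benjamini-Hochberg adjustment over all 15185 genes, calling an adjusted p under 0.05. With control siRNA, R1881 raised GBP1 and lowered BST2 and IFITM1. These 3 of 10 called genes, 1 higher and 2 lower, compare with 27.0% of all genes called in either direction, a share close to that of the set. BST2 fell by 1.40 ± 0.35 on the log2 scale (adjusted p = 0.00759), from 1.39 ± 0.546 to 0.509 ± 0.188 CPM. IFITM1 fell by 1.08 ± 0.30 (edgeR, adjusted p = 0.0134), from 1.67 ± 0.574 to 0.805 ± 0.235 CPM. For both genes the 3 R1881 libraries lay below the 3 vehicle libraries. GBP1 rose by 2.11 ± 0.51 (edgeR, adjusted p = 0.00567), from 0.313 ± 0.166 to 1.40 ± 0.919 CPM, with no overlap between the groups. Without replicate 3 of every group its difference was 1.14 (adjusted p = 0.0769).

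The other 7 genes did not pass the test with control siRNA. IFITM3 differed by -0.59 ± 0.23 (edgeR, adjusted p = 0.0733), from 91.9 ± 33.8 to 61.3 ± 11.0 CPM. With the replicate number as a block, since same-numbered libraries deviated together in this comparison, IFITM3 passed, at -0.55 (edgeR, adjusted p = 0.000704). IFI27 was lower in every R1881 library than in any vehicle library, narrowly at 0.267 against 0.277 CPM, with a difference of -0.76 ± 0.48 on counts of 3 to 7 (edgeR, adjusted p = 0.314). Non-overlap downward, which held for IFI27, BST2 and IFITM1, was met by 17.0% of all genes. The IFITM1 call was lost without replicate 3 of control siRNA with vehicle (log2 difference -0.76, adjusted p = 0.0814) and without replicate 1 of control siRNA with R1881 (-0.83, adjusted p = 0.0807). Fitted on the 6 control siRNA libraries alone, BST2 (-1.41, edgeR adjusted p = 0.0733) and IFITM1 (-1.08, 0.108) kept their size but were not called. GBP1, IFI27 and IFI44L did not pass the filter there and were not tested, and 0 of the other 7 genes were called, as the number called over all genes went from 4105 to 1842. The libraries compared are the same controls that served the comparisons by which the genes were chosen. A low value in control R1881 libraries enlarges both the rise with an E2F siRNA and the fall with R1881. A low value in control vehicle libraries, as for GBP1, enlarges both the rise with an E2F siRNA and the rise with R1881. The BST2, IFITM1 and GBP1 calls are therefore not independent of the choice.

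With either E2F siRNA, 0 of 10 genes were called for R1881. With E2F1 siRNA 19.8% of all genes were called, and 2 of the 10 had an unadjusted p under 0.05. BST2 was higher in all 3 R1881 libraries, by 0.63 ± 0.26 (edgeR, adjusted p = 0.114), as were 17.3% of all genes by non-overlap, and IFI27 differed by 0.53 ± 0.24 (adjusted p = 0.147). With E2F2 siRNA 22.8% of all genes were called and 0 of the 10 had an unadjusted p under 0.05. In 0 of the 10 were the E2F2 siRNA libraries of the 2 treatments apart, where 21.8% of all genes were higher and 21.4% lower in every R1881 library. The differences ran from -0.22 for IFI27 to 0.63 for IFI44L. DESeq2 and limma-voom also called 0 of 10 with either pool.

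**Figure D3:**
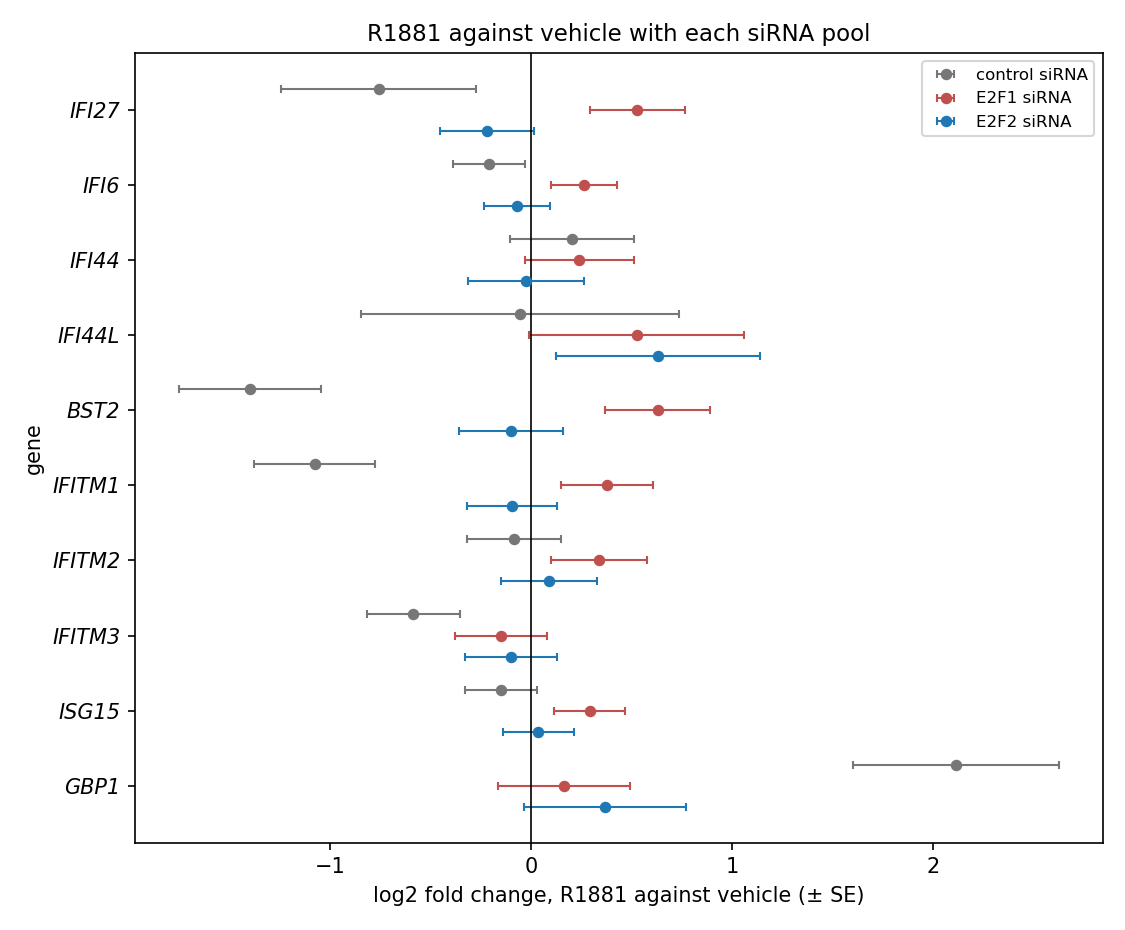
The plot of R1881 against vehicle gives the log2 fold change (horizontal axis, points, with bars of 1 SE) of each gene with control (grey), E2F1 (red) and E2F2 (blue) siRNA. With control siRNA BST2 and IFITM1 lie below -1 and GBP1 above 2, while with both E2F pools all genes lie between -0.22 and 0.63.

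The difference in R1881 response between an E2F pool and control is built from the comparisons that chose the genes, so it is given with its SE and no test. It was positive for BST2, at 2.03 ± 0.44 for E2F1 siRNA and 1.30 ± 0.44 for E2F2 siRNA, and for IFITM1, at 1.45 ± 0.38 and 0.98 ± 0.38. It was negative for GBP1, at -1.95 ± 0.61 and -1.74 ± 0.66, and these became -1.35 and -1.14 without replicate 3 of control siRNA with R1881. IFI27 had 1.29 ± 0.54 and 0.54 ± 0.53. For the other 6 genes both values lay between -0.23 and 0.69.

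The difference between the E2F pools was not the comparison that chose the genes, but its libraries served in choosing them. Asking for rises with both pools limits how far the pools can differ, so the counts called are not independent of the choice. Between the pools, GBP1 was the one gene of the 10 that passed the test. With vehicle it was lower with E2F2 than with E2F1 siRNA, by -1.20 ± 0.38 (edgeR, adjusted p = 0.0236), at 1.36 ± 0.127 against 3.15 ± 0.478 CPM and with no overlap. This 1 of 10 compares with 30.6% of all genes called, and DESeq2 and limma-voom also called 1 of 10. The GBP1 call was lost on leaving out replicate 1 or 2 of E2F1 siRNA with vehicle (adjusted p = 0.0616 and 0.0614) or replicate 1, 2 or 3 of E2F2 siRNA with vehicle (0.0544, 0.0775 and 0.0571), with log2 differences from -1.26 to -1.12. IFI6 (0.38 ± 0.17, edgeR adjusted p = 0.0972), BST2 (0.53 ± 0.27, 0.149) and IFITM1 (0.44 ± 0.23, 0.162) were higher in all E2F2 siRNA libraries than in any E2F1 siRNA library, as were 22.8% of all genes. With the replicate number as a block, IFI6 passed at 0.38 (edgeR, adjusted p = 0.0112).

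With R1881, 0 of the 10 genes passed between the pools, against 24.0% of all genes, and 1 had an unadjusted p under 0.05. GBP1 was again lower with E2F2 siRNA, by -0.997 ± 0.354 (edgeR, adjusted p = 0.0523), and IFI44 by -0.59 ± 0.28 (0.147). In both genes all E2F2 siRNA libraries lay below all E2F1 siRNA libraries, as in 23.8% of all genes. GBP1 was just past the threshold with DESeq2 (adjusted p = 0.0460) and limma-voom (0.0491), which each called 1 of 10. In a fit of the 6 libraries compared, GBP1 (edgeR, adjusted p = 0.0211) and IFI44 (0.0105) passed. IFI27, IFI6 and IFITM1 differed by -0.21 ± 0.23, 0.05 ± 0.17 and -0.03 ± 0.22.

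The rest of the interferon pathway was followed in 8 lists of 100 genes, of which 73 could be tested and none is one of the 10. The lists were written with earlier results of these data known, and the genes named from them are mostly those called most often. Comparisons with control also use the libraries by which the 10 were chosen. The counts and p-values for the lists therefore describe these data and are not an independent check. With vehicle, 11 of the 73 rose and 1 fell with E2F1 siRNA against control, where 2.36% of all genes rose and 2.92% fell. With E2F2 siRNA 30 rose and 0 fell, where 14.2% and 13.1% of all genes did. With R1881, 15 rose and 1 fell with E2F1 siRNA (4.42% and 4.92% of all genes), and 32 rose and 2 fell with E2F2 siRNA (15.9% and 14.4%). The lists' median log2 fold change was 0.27, 0.42, 0.25 and 0.52 in that order, beside medians over all genes of 0.01, 0.02, -0.01 and 0.03. The E2F1 count with vehicle depended on the fit: it was 21 with the replicate number as a block and 1 when only the 6 libraries compared were fitted, while the count over all genes went from 802 to 1934 and to 17. The E2F2 count with vehicle was 15 in a fit of its 6 libraries, where the count over all genes went from 4145 to 1793. The E2F1 count with R1881 was 10 without replicate 2 of control siRNA or without replicate 3 of E2F1 siRNA in R1881.

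The interferons themselves were hardly detected. Of 10 ligand genes, 6 were at 0 in all 18 libraries, and none exceeded 2 counts in a library. IFNB1 had 1 count in all libraries together and IFNL1 had 8. A count of 0 allows up to 3 counts, or 0.202 to 0.274 CPM in these libraries, so a change in ligand RNA was not detectable at this depth.

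Among receptors and JAK kinases, 8 of 9 were tested. With vehicle 0 of 8 were called with E2F1 siRNA by edgeR, DESeq2 or limma-voom, 0 had an unadjusted p under 0.05, and 2 rose with E2F2 siRNA. With R1881, 1 rose with E2F1 siRNA, and 3 rose and 1 fell with E2F2 siRNA. IL10RB, a receptor chain for interferon lambda, rose by 0.40 ± 0.11 (edgeR, adjusted p = 0.0119) in vehicle and 0.82 ± 0.11 (2.71e-05) in R1881 with E2F2 siRNA. JAK1 stood at 7.46 ± 0.983 CPM in control vehicle libraries and 9.33 ± 0.189 with E2F2 siRNA (0.32 ± 0.11, edgeR adjusted p = 0.0435), and at 5.23 ± 0.205 and 6.98 ± 0.366 in R1881 (0.42 ± 0.12, 0.0134). With E2F1 siRNA its differences were -0.21 ± 0.11 (edgeR, adjusted p = 0.448) and 0.17 ± 0.12 (0.538). IFNGR2, a chain of the interferon gamma receptor, rose in R1881 by 0.40 ± 0.11 with each pool (edgeR, adjusted p = 0.0381 for E2F1 and 0.0147 for E2F2 siRNA).

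Of the STAT and IRF factors and their SOCS inhibitors, 8 of 9 were tested, and few passed. With E2F1 siRNA 0 of 8 were called in vehicle by edgeR, DESeq2 or limma-voom (2 at an unadjusted p under 0.05) and 1 rose in R1881. With E2F2 siRNA 1 rose in vehicle, and 3 rose and 1 fell in R1881. IRF9, at 0.748 to 1.31 CPM, did not pass in any of the 4 (edgeR, adjusted p from 0.158 to 0.827). STAT2 rose in R1881 with E2F1 siRNA (0.36 ± 0.09, edgeR adjusted p = 0.0148) and E2F2 siRNA (0.28 ± 0.09, 0.0257). IRF1, a factor that activates GBP genes and antigen presentation, rose with E2F2 siRNA by 0.67 ± 0.18 in vehicle (edgeR, adjusted p = 0.0100) and 0.76 ± 0.20 in R1881 (0.00986), and IRF2 rose by 0.41 ± 0.12 with E2F2 siRNA in R1881 (0.0144).

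The sensors of viral RNA and DNA gave 9 tested genes of 11. With E2F1 siRNA 0 of 9 were called at either treatment by edgeR, DESeq2 or limma-voom, and 1 at each had an unadjusted p under 0.05. With E2F2 siRNA 3 rose in vehicle and 2 in R1881. IFIH1 (MDA5) rose with E2F2 siRNA by 0.86 ± 0.18 in vehicle (edgeR, adjusted p = 0.00243) and 1.23 ± 0.18 in R1881 (9.3e-05). DDX58 (RIG-I) rose by 1.22 ± 0.28 (edgeR, adjusted p = 0.00382) and 1.26 ± 0.28 (0.00319). TBK1, the kinase downstream of both, rose by 0.73 ± 0.26 in vehicle (edgeR, adjusted p = 0.0492) and differed by 0.41 ± 0.26 in R1881 (0.262).

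The enzymes that attach and remove ISG15 did not follow one direction. Of 7 tested, 1 fell with E2F1 siRNA at either treatment, and 3 rose in vehicle and 4 in R1881 with E2F2 siRNA. HERC5, the main ligase for ISG15, rose with E2F2 siRNA by 2.06 ± 0.30 in vehicle (edgeR, adjusted p = 0.000102) and 1.34 ± 0.27 in R1881 (0.00127). HERC6 rose by 0.72 ± 0.17 (edgeR, adjusted p = 0.00593) and 0.62 ± 0.17 (0.0109). TRIM25, a ligase of the RIG-I pathway, was the gene that fell with E2F1 siRNA, by -0.40 ± 0.07 in vehicle (edgeR, adjusted p = 0.00283) and -0.29 ± 0.07 in R1881 (0.0161), and it rose with E2F2 siRNA by 0.92 ± 0.07 in vehicle (1.47e-07). USP18, the protease that removes ISG15 and restrains interferon receptors, stood at 8.28 to 12.6 CPM in the 6 groups and passed in none of the 4 comparisons (edgeR, adjusted p from 0.358 to 0.893).

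Relatives of the 10 genes included the other guanylate-binding proteins; 5 of 11 were tested, and 1 and 3 rose in vehicle and 2 and 3 in R1881 with E2F1 and E2F2 siRNA. GBP2 was called in all 4 comparisons. It stood at 12.8 ± 1.14 CPM with control siRNA and vehicle, 36.3 ± 2.48 with E2F1 siRNA and 29.4 ± 3.36 with E2F2 siRNA, a log2 difference of 1.51 ± 0.15 (edgeR, adjusted p = 2.06e-05) and 1.20 ± 0.15 (2.4e-05). R1881 lowered GBP2 in all 3 siRNA backgrounds, by -1.30 ± 0.16 with control (edgeR, adjusted p = 1.93e-05), -1.41 ± 0.15 with E2F1 (3.92e-06) and -1.003 ± 0.152 with E2F2 siRNA (0.000122). GBP1 rose with R1881 in control cells, a call that was lost with replicates 1 and 2 only (1.14, edgeR adjusted p = 0.0769). GBP3 rose with E2F2 siRNA by 1.02 ± 0.17 in vehicle (edgeR, adjusted p = 0.000273) and 1.78 ± 0.19 in R1881 (4.62e-06), and R1881 lowered it with control siRNA by -1.69 ± 0.19 (7.38e-06). GBP4, at 0.166 to 1.94 CPM, rose with E2F2 siRNA by 3.29 ± 0.74 in vehicle (edgeR, adjusted p = 0.00348) and 2.92 ± 0.83 in R1881 (0.0138).

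The list of other interferon-stimulated genes held most of the calls with E2F1 siRNA: 10 of 23 tested rose in vehicle and 11 in R1881, and with E2F2 siRNA 12 and 13 rose. Over all lists, 9 genes were called higher in all 4 comparisons, among them OASL, OAS1 and IFIT2. OASL was 2.70 ± 0.0967 CPM with control siRNA and vehicle, 5.45 ± 2.21 with E2F1 siRNA (1.01 ± 0.23, edgeR adjusted p = 0.0178) and 14.2 ± 1.30 with E2F2 siRNA (2.39 ± 0.22, 1.17e-06). OAS1 was 2.04 ± 0.357, 5.94 ± 1.04 and 8.32 ± 0.649 CPM in the same groups (1.54 ± 0.20, edgeR adjusted p = 0.000196, and 2.03 ± 0.19, 1.47e-06). IFIT2, which binds viral RNA, was 7.76 ± 1.06, 17.0 ± 1.65 and 23.3 ± 1.13 CPM (1.13 ± 0.16, edgeR adjusted p = 0.000498, and 1.59 ± 0.16, 2.97e-06).

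Of 13 genes of MHC class I antigen presentation, all tested, edgeR called 0 with E2F1 siRNA at either treatment (3 in vehicle and 1 in R1881 at an unadjusted p under 0.05; DESeq2 called 1 and 0, limma-voom 0 and 0). With E2F2 siRNA 6 rose in vehicle and 4 in R1881. NLRC5, the activator of that gene set, rose with E2F2 siRNA by 1.37 ± 0.19 in vehicle (edgeR, adjusted p = 7.47e-05) and 1.17 ± 0.21 in R1881 (0.000445). B2M rose by 0.65 ± 0.15 (edgeR, adjusted p = 0.00427) and 0.69 ± 0.15 (0.0024), and TAP1 by 0.35 ± 0.11 (0.0262) and 0.48 ± 0.11 (0.00309).

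The pools were also compared directly over these lists. E2F2 siRNA exceeded E2F1 siRNA for 19 of 73 genes in vehicle and 16 in R1881, and lay below it for 4 and 1, where 16.1% and 13.1% of all genes were higher and 14.4% and 11.0% lower. Called higher at both treatments were HERC5, HERC6, TRIM25, IL10RB, IFIH1, GBP3, NLRC5, TAP1, OASL and IFIT2 among the genes named above. Blocking on the replicate number brought the vehicle count to 36, 29 higher and 7 lower. It was 14 without replicate 1 of E2F1 siRNA with vehicle, and 13 and 14 without replicates 1 and 2 of E2F2 siRNA with vehicle. R1881 called 5 higher and 17 lower with control siRNA, 5 and 11 with E2F1 siRNA, and 6 and 9 with E2F2 siRNA. Of all genes, 13.8% were higher and 13.2% lower with control siRNA, 10.1% and 9.75% with E2F1 siRNA, and 11.8% and 11.0% with E2F2 siRNA. IRF1 fell with R1881 by -1.44 ± 0.19 in control cells (edgeR, adjusted p = 4.2e-05). The control count was 9 when only the 6 control libraries were fitted, and the E2F2 count was 9 in place of 15 without replicate 1 of E2F2 siRNA with vehicle.

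Replicate 3 differed from the other replicates in a way that touches several of the 10 genes. Over tested genes, the chi-square per degree of freedom between libraries of a group was 1.79 to 4.43 for replicates 1 and 2 and 8.00 to 93.2 for replicate 3 against either. The deviation of replicate 3 from the mean of replicates 1 and 2 correlated across 15122 genes with the GC content of the longest transcript, at r = 0.38 to 0.78 in the 6 groups, where genes are not independent replicates. IFI6, IFITM2 and IFITM3, with GC contents of 56.1%, 55.4% and 56.9%, stood higher in replicate 3 in 6 of 6 groups, by 0.03 to 0.38, 0.12 to 0.92 and 0.24 to 0.85 on the log2 scale. ISG15, at 63.4% GC, stood higher in 5 of 6. BST2, at 57.3% GC, did not share this: it stood higher in only 2 of 6 groups, with differences from -0.67 to 0.31. IFI44L, at 37.8% GC, stood lower in 5 of 6, by as much as -1.73. The differences were not the same size in every group: for IFITM2 and IFITM3 they were greatest with control siRNA and vehicle, and GBP1 stood 1.34 higher in replicate 3 with control siRNA and R1881 but -0.94 lower with control siRNA and vehicle. With replicates 1 and 2 only, IFI27 and IFI6 kept their direction in all 4 comparisons with control, and the median of the 10 with E2F1 siRNA and R1881 was 2.25 in place of 1.68.

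**Figure D4:**
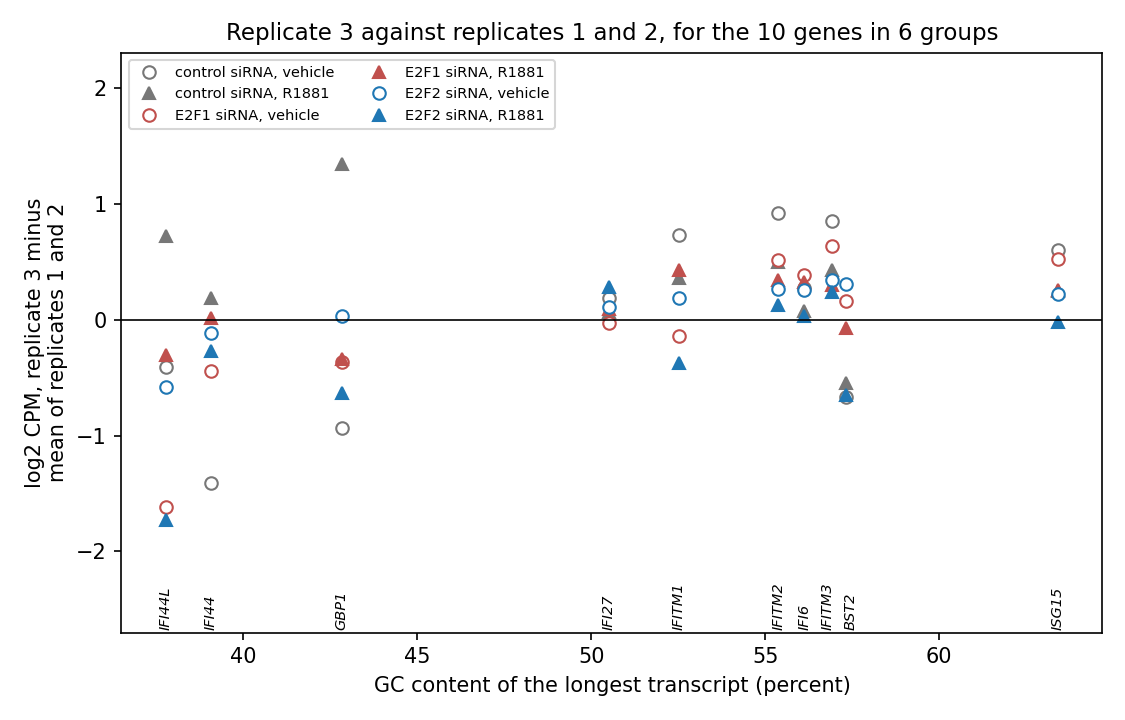
The plot of replicate 3 against replicates 1 and 2 gives, for each gene at its GC content (horizontal axis, percent), the difference in log2 CPM in each of the 6 groups (points). Points of IFI6, IFITM2 and IFITM3 all lie above 0, and those of IFI44L lie below 0 in 5 groups. Those of BST2, at a GC content like that of IFITM3, lie above 0 in only 2 groups.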

How the data were processed

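The deposited file was a table of raw read counts per gene for 18 libraries; per the submitters' processing notes the authors used CASAVA 1.8.2, TopHat2 2.0.13, Picard 1.97 and featureCounts from Subread 1.6.4 with the GRCh38 genome. Per the labels' protocols the libraries came from the TruSeq RNA Exome kit, which captures coding sequence, so counts depend on probe coverage; no source used here gives the annotation release or strand setting. From these counts, genes were filtered with filterByExpr by group (minimum count 10, minimum total 15), scaled by TMM and tested with edgeR 4.0.16 (R 4.3.3) in 1 quasi-likelihood fit of 6 group means, with Benjamini-Hochberg adjustment over 15185 genes. CPM are TMM-scaled, an SE is the log2 fold change over the square root of F, and log2 CPM for correlations used a prior count of 2. Depth was 10930204 to 14819879 counts. Groups came from the labels.

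The members and lists were chosen with earlier results of these data known. All 10 members were named, with up to 3 genes per list, those called in most comparisons of an E2F pool with control (ties by smallest p), further pathway genes given as values, and the genes most like the members. Samples sharing a replicate number deviated together (every pair's correlation over 0.1) in 7 of 9 comparisons, with correlations from 0.0819 to 0.796 over all 9. Replicate numbers come from the labels, which do not say what same-numbered samples share. The exceptions were E2F2 against E2F1 siRNA and E2F2 against control siRNA, both with R1881. Alternatives were RLE scaling, 2 other filters, DESeq2 1.42.0, limma-voom (limma 3.58.1), fits of the compared groups alone, the replicate block, replicates 1 and 2 only and leaving out each library. Gene positions came from GENCODE 29, which matched 57433 of 58037 genes. A comparison of protein sequences that had been planned was not made. Results for some genes of the lists are not reported here.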

Additional observations from a re-analysis of the deposited data

Results flagged for a closer look

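BST2, tetherin, differed between R1881 and vehicle in opposite directions in 2 siRNA backgrounds. With control siRNA all 3 R1881 libraries lay below all 3 vehicle libraries, with a log2 difference of -1.40 (edgeR, adjusted p = 0.00759, and 0.0733 in a fit of these 6 libraries alone). With E2F1 siRNA all 3 lay above, with a difference of 0.63 that did not pass (adjusted p = 0.114), as did 17.3% of all genes. With E2F2 siRNA the libraries overlapped, with a difference of -0.10. It was flagged because every library of one background moved one way and every library of another the opposite way. The difference between the backgrounds was not tested, since it is built from the comparisons that chose the gene.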

How the results depend on the processing

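Levels of IFI27, IFI44L, GBP1, BST2 and IFITM1 rest on few counts, and IFITM counts on unstated handling of shared reads. Apart from leaving out a library, 832 values for single genes of the set were counted as unchanged under the alternatives. For tested values this meant the same direction and side of the threshold. For untested values it meant a move smaller than the spread between replicates, so a small value could change sign. Of the rest, 18 newly passed the threshold, 4 no longer passed, 9 untested values moved and 11 reversed. In the comparison of R1881 with vehicle, the number of the 10 genes called went from 3 to 0 with control siRNA when only the compared groups were fitted, where GBP1 was filtered out and BST2 and IFITM1 kept their size, and from 0 to 3 with E2F1 siRNA in replicates 1 and 2 only. Between E2F2 and E2F1 siRNA with vehicle it was 1, and 2 with the replicate block and 4 in replicates 1 and 2 only. With R1881 it was 0, and 1 (GBP1) without a filter, with DESeq2, with limma-voom and with the replicate block (adjusted p = 0.0317), 2 (GBP1 and IFI44) in the compared groups alone and 3 in replicates 1 and 2 only. Leaving out 1 library gave 0 to 2 in both comparisons of the pools.

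Calls among the 73 pathway genes moved in the compared groups alone from 22 to 9 (R1881, control siRNA), 17 to 26 (E2F2 against E2F1 siRNA, R1881), 12 to 1 (E2F1 against control, vehicle) and 30 to 15 (E2F2 against control, vehicle). In replicates 1 and 2 only they moved from 16 to 32 (R1881, E2F1 siRNA), 15 to 27 (R1881, E2F2 siRNA), 23 to 38 and 17 to 32 (E2F2 against E2F1 siRNA, vehicle and R1881), and 12 to 27 and 16 to 27 (E2F1 against control, vehicle and R1881). Without a filter R1881 with E2F2 siRNA gave 9. The replicate block gave 36 and 26 between the pools in vehicle and R1881 and 21 for E2F1 against control with vehicle, and moved no other pathway count by over 1.5 times. Over all genes it raised the number called in all 9 comparisons, for example from 802 to 1934 and from 1418 to 3022 for E2F1 against control with vehicle and R1881. Leaving out 1 library gave 9 to 18 (R1881, E2F2 siRNA), 13 to 30 (E2F2 against E2F1 siRNA, vehicle) and 10 to 23 (E2F1 against control, R1881). The median log2 fold change of the set, 1.68 for E2F1 against control with R1881, was 2.25 in replicates 1 and 2 only and 1.56 to 2.17 on leaving out 1 library; for E2F2 against control with R1881 it was 1.55, and 0.67 in the compared groups alone, where IFI44L was filtered out. In the main fit that 1.55 is the midpoint of ISG15 (0.71) and IFITM1 (2.40), with no gene between them. Without IFI44L (2.43) the middle gene of the main fit is ISG15. The cause of the other moves was not tested.

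In the comparisons tested, these directions changed. In replicates 1 and 2 only, R1881 with control siRNA gave -0.21 for IFI44 and 0.10 for IFITM2, and with E2F2 siRNA 0.015 for IFI6, 0.029 for IFI44, 0.22 for BST2 and 0.10 for IFITM1. Between the pools with R1881, ISG15 was 0.0038 with RLE scaling and with DESeq2, 0.0020 with the replicate block and 0.089 in replicates 1 and 2 only, where IFITM1 was 0.24. Leaving out 1 library reversed signs in these ranges for R1881 with control siRNA: IFI44 -0.16 to 0.52, IFI44L -0.44 to 0.41, IFITM2 -0.27 to 0.29 and ISG15 -0.25 to 0.075. With E2F1 siRNA the ranges were -0.28 to 0.10 for IFITM3 and -0.12 to 0.29 for GBP1. With E2F2 siRNA they were -0.45 to 0.048 for IFI27, -0.12 to 0.026 for IFI6, -0.11 to 0.068 for IFI44, -0.21 to 0.10 for BST2, -0.17 to 0.028 for IFITM1, -0.017 to 0.19 for IFITM2, -0.18 to 0.030 for IFITM3 and -0.067 to 0.12 for ISG15. Between the pools they were -0.12 to 0.88 for IFI44L with vehicle, and -0.066 to 0.16 for IFI6, -0.20 to 0.12 for IFITM1 and -0.084 to 0.079 for ISG15 with R1881. Against control siRNA, leaving out 1 library gave -0.22 to 0.087 for IFITM2 with E2F1 siRNA and R1881, and for IFITM3 with vehicle -0.39 to 0.20 with E2F1 and -0.12 to 0.38 with E2F2 siRNA.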
